A study of Arabidopsis thaliana with 8 samples.

Results

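The comparison set dark-grown Arabidopsis thaliana seedlings that lack phytochrome A directly against seedlings that lack phytochrome B. It used 4 of the 8 arrays of the series, chosen by their titles, namely 2 of the phyA-211 mutant (phyA below) and 2 of the phyB-9 mutant (phyB), both in the Columbia ecotype. The other arrays, 2 of the phyA-211 phyB-9 double mutant (phyAphyB) and 2 of Columbia wild type (WT), stayed outside the fit, and their values are given as context. Per the labels, all seeds were sown on 0.8% agar, chilled at 6 degrees C for 5 days, exposed to white light for 1 h, and then kept 3 days in the dark at 22 degrees C, the temperature of the light treatment too, until whole seedlings were harvested. Total RNA was hybridised to Affymetrix ATH1 arrays, which measure transcripts near their 3' ends.

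Phytochromes are red and far-red light receptors that switch between an inactive and an active form and, once active, move into the nucleus and cause degradation of PIF transcription factors. Phytochrome A is the form that accumulates in darkness and is broken down in light, and it can act on very brief or far-red light. Phytochrome B is light-stable and dominates under red light. In dark-grown seedlings the hypocotyl elongates and the cotyledons stay closed while seed reserves are used, and light given before the dark period can activate phytochromes in the seed.

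Signals were deposited as linear intensities, and differences below are phyA minus phyB on the scale of log2(intensity + 39). The constant of 39 limits noise at low signal and shrinks differences of dim probe sets. All 22746 probe sets other than Affymetrix controls were tested with limma, and a probe set was called at a Benjamini-Hochberg adjusted p under 0.05. Of these probe sets, 13513 named exactly 1 gene in the platform's annotation table. Neither PHYA nor PHYB was among the named genes, which leaves the genotypes unchecked by gene name. Whether the replicates are separate biological samples is not stated, so p-values cover the spread among 4 arrays, part of which may be technical. An exact permutation test of 2 arrays against 2 cannot go below p = 0.333.

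The arrays did not group by genotype. Over all probe sets the correlation was 0.944 between the phyA arrays and 0.930 between the phyB arrays, against 0.963 between phyA replicate 1 and phyB replicate 1 and 0.924 between phyA replicate 2 and phyB replicate 2. The median absolute difference was 0.287 (log2) between the replicate 1 arrays of phyA and phyB, 0.543 between their replicate 2 arrays, 0.532 between the phyA arrays and 0.550 between the phyB arrays. phyB replicate 2 stood apart. Its GAPDH 3'/5' signal ratio (a measure of RNA integrity, higher for shorter labelled RNA) was 7.87, against 1.31 to 1.57 in the other 3 arrays of the comparison. The actin 3'/5' ratio set it apart less, at 7.5, against 3.64 to 5.61 in the other 3. Every WT and phyAphyB array had a higher actin ratio, from 7.78 to 46.7.

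Between the 2 mutants 2 probe sets passed the test, which is 0.00879% of those tested, and 1 was lower and 1 higher in phyA (0.0044% in each direction). Neither is assigned to a gene in the annotation available here. Probe set 264508_at had intensities of 415 and 42 in phyA, against 32862 and 16365 in phyB. The groups lie far apart, although the phyA arrays also differ from each other. It fell in phyA, with a difference of -6.92 (SE 0.65, limma adjusted p = 0.00108). It was at 28 and 20 in phyAphyB, and at 34226 and 33678 in WT, so it was dim in each of the 4 arrays that carry phyA-211 and bright in the 4 that do not. Without phyB replicate 2 the difference was -7.42 and without phyA replicate 1 it was -8.16, both called.

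Probe set 248066_at showed the opposite pattern, at 5317 and 5605 in phyA, against 37 and 58 in phyB. It rose in phyA, with a difference of 6.00 (SE 0.58, limma adjusted p = 0.00108). The phyAphyB arrays read 3678 and 4282 and the WT arrays 12 and 35, so it was bright only in the 4 arrays that carry phyA-211. Its phyB values lie near the added constant, and its difference ran from 5.24 with a constant of 100 to 6.85 with a constant of 1. It lost its call when either phyA array was left out, with a difference of 6.04 (limma adjusted p = 0.091) without the first and 5.96 (limma adjusted p = 0.062) without the second, where the single phyA array was assumed to vary like the phyB pair. With quantile normalization 264508_at lost its call (-6.85, adjusted p = 0.17), and when variances were not modelled on intensity both did (adjusted p = 1 for 264508_at and 0.11 for 248066_at).

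**Figure D1:**
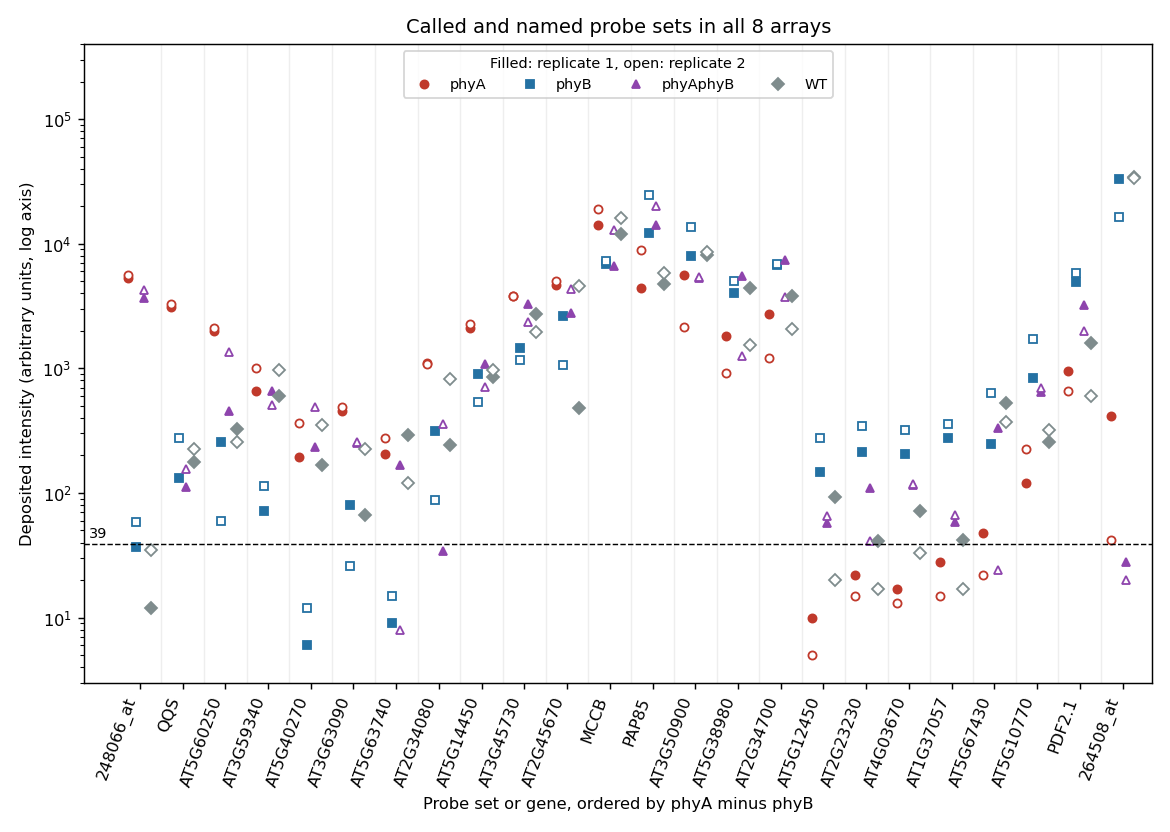
Deposited intensity (log axis) in all 8 arrays for the 2 called probe sets and the 22 genes named by rule, ordered from the highest to the lowest phyA minus phyB difference; filled points are replicate 1, open points replicate 2, and the dashed line is the constant of 39. The called probe sets sit at the ends, with 248066_at at 3678 or more and 264508_at at 415 or less in all arrays carrying phyA-211.

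At an unadjusted limma p under 0.05 there were 692 probe sets (3.04%), 350 of them higher in phyA (1.54% of those tested) and 342 lower (1.5%), where 1137.3 in all would be expected with no difference. The phyA arrays lay wholly above the phyB arrays at 3202 probe sets (14.1%) and wholly below them at 3346 (14.7%). For 2 arrays against 2 with no difference, separation in either direction has a probability of 0.333. The 2 shares together do not reach that, so they do not by themselves show a difference. With a difference of at least 1 log2 unit as well, 695 were higher (3.06%) and 866 lower (3.81%), and 411 and 616 of these name 1 gene. The split depends on the scaling: after median centring there were 344 higher and 483 lower at unadjusted p under 0.05, and 657 higher and 1025 lower without overlap at 1 log2 unit. The counts also move with single arrays: without phyA replicate 1 the counts at unadjusted p were 749 higher and 348 lower, and without phyA replicate 2 they were 105 and 475. Without phyB replicate 1 they were 751 and 910, and without phyB replicate 2 262 and 175.

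The WT and double mutant arrays, which did not enter the fit, show on which side of the midpoint between phyA and phyB each probe set lay in them. WT replicate 1 had the highest 3'/5' ratios of the 8 arrays, 16.7 for GAPDH and 46.7 for actin, so WT values are context only. Of the 695 probe sets higher in phyA, both phyAphyB arrays lay on the phyA side at 256 (36.8%) and on the phyB side at 107 (15.4%). Both WT arrays lay on the phyA side at 216 (31.1%) and on the phyB side at 151 (21.7%). Of the 866 lower in phyA, both phyAphyB arrays lay on the phyA side at 229 (26.4%) and on the phyB side at 194 (22.4%), and both WT arrays at 312 (36.0%) and 208 (24.0%). At many of the rest the 2 arrays of a genotype fell on different sides, 328 and 346 for WT and 332 and 443 for phyAphyB. WT replicate 2 alone lay on the phyA side at 65.5% of the 695 and 67.6% of the 866. Its correlation over all probe sets was lowest with phyB replicate 2, at 0.926, against 0.947 to 0.963 with the other phyA and phyB arrays. The part of phyB replicate 2 in these sides was not tested.

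**Figure D2:**
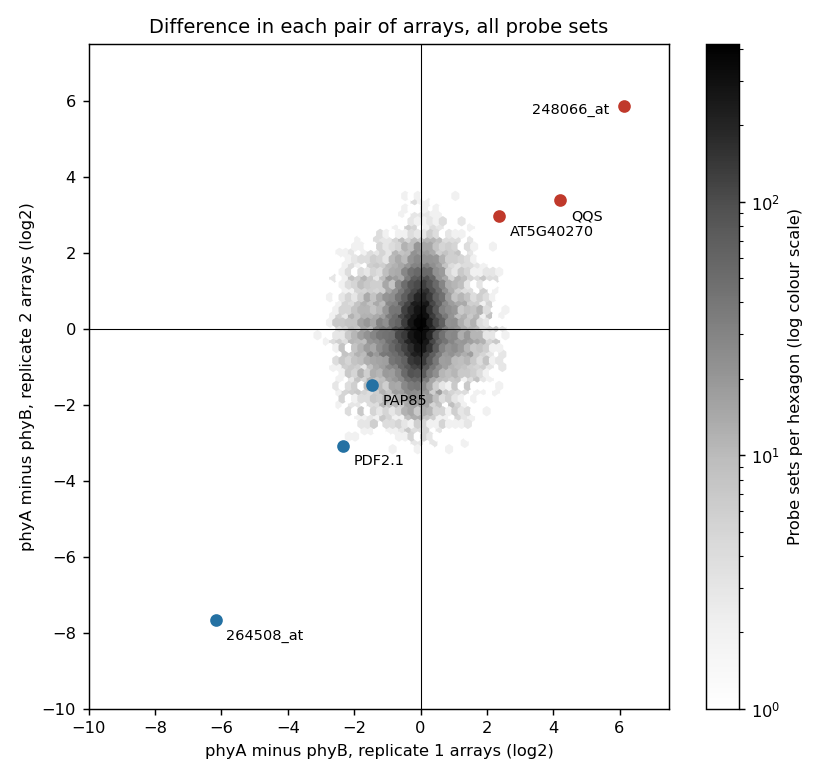
phyA minus phyB (log2) in the replicate 1 arrays (x axis) and the replicate 2 arrays (y axis) for all 22746 probe sets, shaded by number per hexagon on a log colour scale, with 6 probe sets or genes marked. Most probe sets spread more along the y axis than the x axis, and 264508_at and 248066_at lie far from the rest in both pairs.

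No probe set with a gene name was called, and 8 of the 10 probe sets with the smallest p have none. The nearest named gene to the threshold was QQS, an Arabidopsis-specific gene that affects starch content and whose expression is known to vary between Columbia lines with its DNA methylation. QQS had intensities of 3119 and 3255 in phyA, against 132 and 276 in phyB. Its difference was 3.80 (SE 0.55, limma adjusted p = 0.0526). The WT arrays read 178 and 226 and the phyAphyB arrays 111 and 155, so the phyA pair stood above the other 6 arrays, including those of the double mutant that shares phyA-211. Its call depended on the setting: the limma adjusted p was 0.0052 without phyB replicate 2, 0.0071 after median centring and 0.020 with a constant of 1, but 0.17 after quantile normalization, 0.18 with all 8 arrays in the fit, 1 without the intensity trend, and 0.43 and 0.79 when phyA replicate 1 or 2 was left out. Its difference stayed between 3.36 and 4.24.

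PDF2.1, a plant defensin, was the nearest named gene on the other side, at 958 and 657 in phyA, against 4969 and 5812 in phyB. Its difference was -2.70 (SE 0.40, limma adjusted p = 0.0526). With a constant of 1 the limma adjusted p was 0.022, but it was 0.38 after quantile normalization, 0.44 with all 8 arrays in the fit, 1 without the intensity trend and 0.11 to 0.50 when 1 array was left out. It read 3223 and 1993 in phyAphyB, and 1608 and 595 in WT, so every array with phyB-9 lay above every array without it. PAP85, a vicilin-like seed storage protein, was at 4426 and 8835 in phyA, against 12256 and 24718 in phyB, a difference of -1.47 (adjusted p = 1). The phyAphyB arrays read 14111 and 20201 and the WT arrays 4743 and 5802, and here too the 4 arrays with phyB-9 lay above the other 4. In whole seedlings a larger share of cells that hold a transcript and more RNA per cell cannot be told apart.

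A further group of named genes was low in the phyB pair. AT5G40270, known as VENOSA4, is a gene in which phyB-9 stocks have been reported to carry a further mutation; whether these seeds did was not tested. It had intensities of 194 and 363 in phyA, against 6 and 12 in phyB, and read 233 and 487 in phyAphyB and 167 and 354 in WT. The phyB pair lay below the other 6 arrays and below the added constant, so the difference of 2.68 (adjusted p = 1) ran from 1.76 with a constant of 100 to 4.80 with a constant of 1. AT3G59340 read 663 and 997 in phyA, against 71 and 114 in phyB, with 654 and 510 in phyAphyB and 600 and 968 in WT (difference 2.72, adjusted p = 1). AT3G63090 stood at 455 and 485 in phyA, against 80 and 26 in phyB, with 250 and 257 in phyAphyB and 66 and 225 in WT. WT replicate 1 thus lay between the phyB arrays in that gene. AT5G63740 was at 205 and 274 in phyA, against 9 and 15 in phyB, but its phyAphyB arrays disagreed, at 167 and 8.

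The other genes named for a higher level in phyA had a limma adjusted p of 0.246 or more. AT5G60250 read 1976 and 2090 in phyA, against 255 and 60 in phyB, with 323 and 257 in WT, a difference of 3.60. AT5G14450, a GDSL-type esterase, read 2102 and 2262 in phyA, against 898 and 538 in phyB, with 859 and 963 in WT, so WT lay near phyB in both genes. AT2G34080, a cysteine protease, was at 1101 and 1080 in phyA, against 315 and 88 in phyB (2.41). AT3G45730 was at 3780 and 3790 in phyA, against 1453 and 1164 in phyB (1.51), and AT2G45670, a lysophospholipid acyltransferase, at 4642 and 5059, against 2640 and 1062 (1.51). MCCB, the beta subunit of methylcrotonyl-CoA carboxylase in leucine breakdown, was at 14097 and 18969 in phyA, against 6918 and 7305 in phyB (1.20). In MCCB the WT arrays, at 11946 and 15982, lay nearer phyA. Its phyAphyB arrays disagreed, at 6659, below both phyB arrays, and 12942.

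On the lower side, AT5G10770, an aspartyl protease family gene, was at 120 and 224 in phyA, against 834 and 1715 in phyB, a difference of -2.60. The phyAphyB arrays, at 645 and 692, lay between, and WT, at 256 and 319, lay near phyA. AT2G34700, of the Ole e allergen and extensin family, was at 2716 and 1205 in phyA, against 6799 and 6911 in phyB (-1.90), AT5G38980 at 1814 and 916, against 3984 and 5001 (-1.76), and AT3G50900 at 5652 and 2160, against 7951 and 13637 (-1.56). In these 3 genes phyA replicate 2 was the lowest of the 4 arrays. The remaining named genes were dim in phyA, all below 50, against 148 to 630 in phyB: AT1G37057 and AT4G03670, both annotated as pseudogenes, AT5G12450, AT2G23230, a terpene synthase family gene, and AT5G67430. Their differences ran from -2.58 to -2.39, and their sizes depend on the added constant. None of these 9 genes passed the test, with an adjusted p of 0.612 or more.

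Over the 22 named genes the WT and phyAphyB arrays took no single side. Of the 11 higher in phyA, both WT arrays lay on the phyA side in 4 and on the phyB side in 3, and both phyAphyB arrays likewise in 4 and 3. Of the 11 lower in phyA, WT lay on the phyA side in 6 and on the phyB side in 2, and phyAphyB in 3 and 4.

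Among probe sets without a gene name, 4 with small p were looked at after their values were seen, and none passed the test. Probe set 257809_at read 43138 and 34039 in phyA, against 10475 and 6907 in phyB, and 248125_at 5307 and 7467 in phyA, against 24828 and 33597 in phyB. In both the double mutant shared the high level, at 24312 and 32248 for 257809_at and 22939 and 29706 for 248125_at, while WT was low, at 6688 and 6828, and 7096 and 5706. Probe set 252957_at read 2348 and 1676 in phyA, against 8840 and 8096 in phyB, with 1775 and 1419 in phyAphyB and 539 and 1042 in WT, so the phyB pair alone was high. Probe set 255500_at read 3039 and 4974 in phyA, against 301 and 73 in phyB, with 1713 and 3360 in phyAphyB and 213 and 354 in WT. It had an adjusted p of 0.0526 and was called when either phyB array was left out.

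Genes were then grouped by function. Of 37 lists, 33 had at least 1 named probe set and 25 had 3 or more. Lists and members were chosen with earlier results of these data known, so counts set beside the background are descriptions and not tests. No list member was called in the comparison, and of the 25 medians 6 were positive and 19 negative, beside a median of -0.01 over all probe sets, of which 49.6% were positive. That count also moved with single arrays, to 16 positive medians without phyB replicate 2 and 12 without phyA replicate 1.

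**Figure D3:**
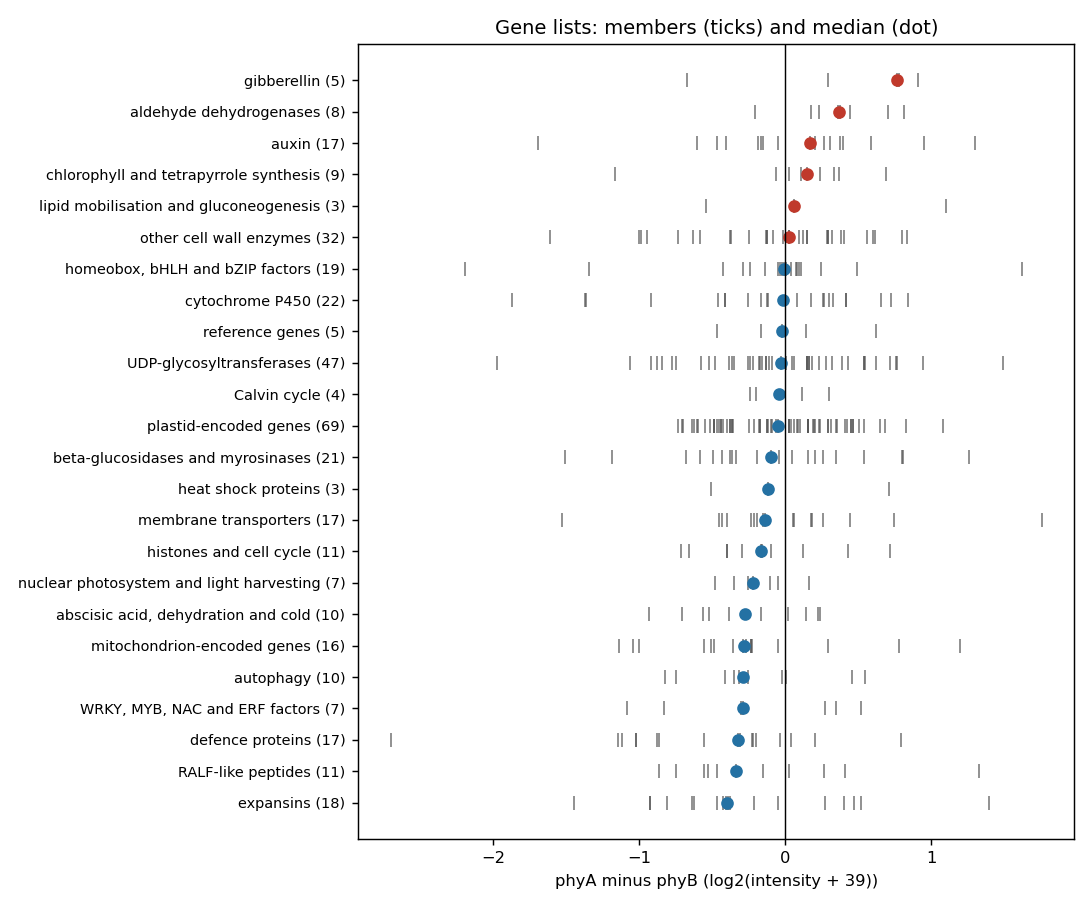
phyA minus phyB (log2(intensity + 39)) for the members (ticks) and the median (dot) of each gene list with 3 or more measured members, except tissue markers, with the number of members in brackets. Medians run from -0.39 for expansins to 0.76 for gibberellin genes, and members of most lists fall on both sides of 0. The defence list is shown with the 2 peptide deformylases that its symbols matched.

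Light signalling and the clock had few named genes, and none set the mutants apart. FHL, which with its relative FHY1 carries phytochrome A into the nucleus, was at 2875 and 2936 in phyA, against 2447 and 3562 in phyB (difference -0.02). HYH, a bZIP factor that promotes light responses, was at 207 and 261 in phyA, against 131 and 304 in phyB (0.17). The clock gene GI was at 1416 and 2276 in phyA, against 1587 and 1753 in phyB (0.10). In each, the phyA values fell within the range of phyB or crossed it.

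Photosynthesis genes of the nucleus were also close. Of 7 nuclear photosystem genes 6 had a negative difference, with a median of -0.22, and 1 was non-overlapping, which for 7 genes is near the background of 14.7%. LHCB4.1, a minor antenna protein of photosystem II, was at 62027 and 42377 in phyA, against 53818 and 79404 in phyB (-0.35). LHCB4.3, of the same family, was at -0.48 and the photosystem II subunit PSBW at -0.26. The 4 Calvin cycle genes showed a median of -0.04, with RCA, the activase of Rubisco, at 0.30, SBPASE, a regenerating phosphatase, at -0.24 and TPI, annotated as the cytosolic triose phosphate isomerase, at -0.20. Of 9 chlorophyll and tetrapyrrole genes 7 were positive (median 0.15). Of the 9, only HEME1 and HEME2, uroporphyrinogen decarboxylases, did not overlap between the mutants, at 0.69 and 0.34. Both were higher in phyA, beside the background of 14.1%. HEME1 differed by 0.17 in the replicate 1 arrays and by 1.22 in the replicate 2 arrays. HEMA3, a glutamyl-tRNA reductase, was at -1.17 with intensities of 7 and 170 in phyA, against 40 and 575 in phyB. PORB, which reduces protochlorophyllide in light, was at 63901 and 44044 in phyA, against 58804 and 34265 in phyB. The single carotenoid gene, LYC (lycopene cyclase), was at 0.30, and the flavonoid gene DFR (dihydroflavonol reductase) at -1.26, with 6 and 453 in phyA, against 376 and 265 in phyB. The gene matched by the symbol CHI on the flavonoid list, at 0.57, is AT2G43570, annotated as a chitinase and not as chalcone isomerase.

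The 69 plastid-encoded genes divided evenly, 34 positive and 35 negative, with a median of -0.05. They did not differ as a group between the mutants but did between the replicate numbers of phyA and phyB. Relative to each gene's mean over the 4 arrays, the median was -0.47 and 0.47 in phyA replicates 1 and 2, against -0.69 and 0.80 in phyB replicates 1 and 2. The other arrays showed a smaller shift on that scale, at -0.91 and -0.64 in WT replicates 1 and 2 and -0.35 and -0.31 in those of phyAphyB. phyA lay above phyB in the replicate 1 arrays (median 0.16) and below it in the replicate 2 arrays (-0.30). Without phyB replicate 2, the array with the GAPDH 3'/5' ratio of 7.87, the median difference was 0.59, and without phyB replicate 1 it was -0.82. Only psaA, a core protein of photosystem I, had an unadjusted p under 0.05, at 4678 and 6078 in phyA, against 2722 and 2295 in phyB (1.08, adjusted p = 1).

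By complex, the median difference ran from -0.45 to 0.27. All 5 genes for the plastid RNA polymerase and the maturase matK had negative differences (median -0.45, led by rpoC1 at -0.60), but their medians were -0.08 in the replicate 1 arrays and -0.98 in the replicate 2 arrays. The cytochrome b6f genes with ccsA had a median of -0.36, the NDH dehydrogenase genes -0.24 (lowest ndhJ, at -0.70), the ATP synthase genes -0.17 and the small ribosomal subunit genes -0.14. Photosystem II genes stood at 0.06, large ribosomal subunit genes at 0.21, photosystem I genes with ycf3 and ycf4 at 0.24, and rbcL, accD, clpP and cemA at 0.27. Of the 69 genes 3 had phyA arrays that did not overlap the phyB arrays, 2 higher and 1 lower, well under the background shares of 14.1% and 14.7%.

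Mitochondrion-encoded genes had 13 of 16 negative differences (median -0.28). The replicate 1 arrays gave a median of 0.22 and the replicate 2 arrays -0.88. phyB replicate 2 held the highest level of the list, 0.84 above the mean of the 4 arrays, and without it the median difference was 0.42. Values of nad9, a complex I subunit, were 415 and 838 in phyA, against 881 and 1686 in phyB, those of nad7, another subunit, 116 and 142 in phyA, against 33 and 35 in phyB (1.20), and those of the cytochrome c maturation gene ccb203 277 and 438, against 269 and 2031 (-1.04). The part of RNA quality in these organelle values was not tested.

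**Figure D4:**
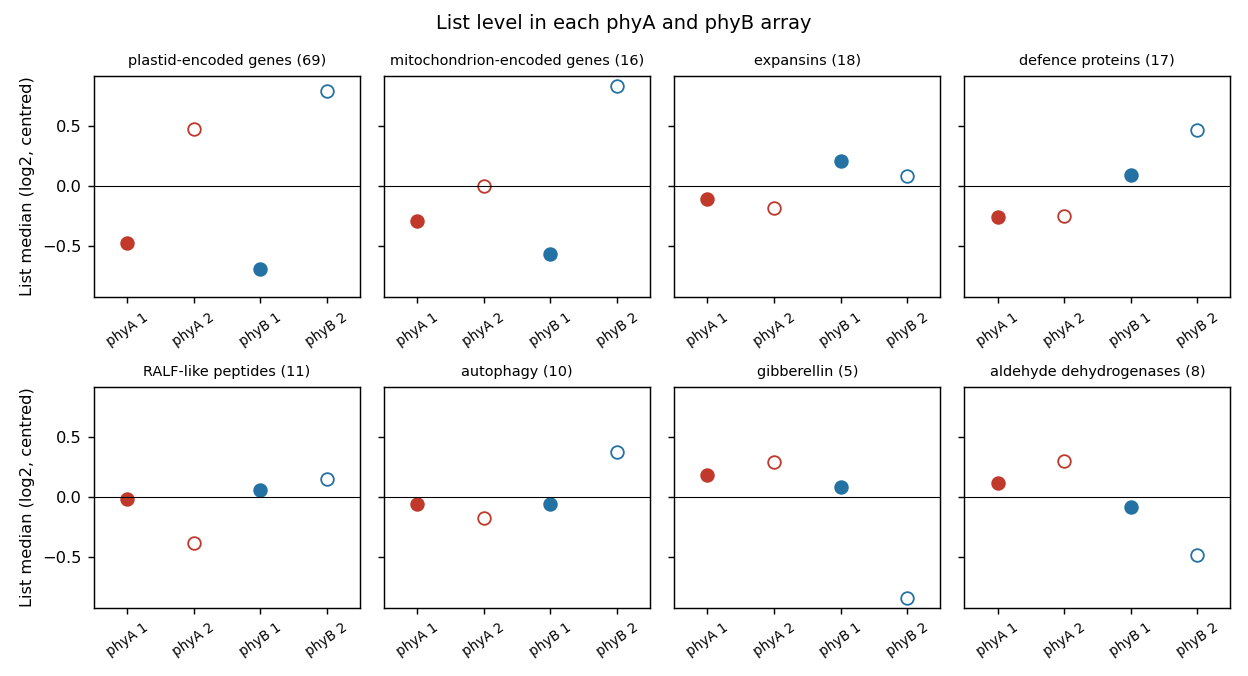
Median level of 8 gene lists in the 2 phyA and 2 phyB arrays, as log2(intensity + 39) minus each gene's mean over the 4 arrays, with the number of genes in brackets; filled points are replicate 1 and open points replicate 2. Plastid-encoded genes are low in both replicate 1 arrays (-0.47 and -0.69) and high in both replicate 2 arrays (0.47 and 0.80). Both phyA arrays lie below both phyB arrays for expansins, defence proteins and RALF-like peptides, and narrowly for autophagy genes. They lie above both phyB arrays for gibberellin genes and aldehyde dehydrogenases. The defence panel includes the peptide deformylases that its symbols matched.

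Expansins, which loosen cell walls during elongation, had 13 of 18 negative differences (median -0.39). That was the lowest median among lists of 3 or more as written. The defence list without 2 wrongly matched genes, described below, had a lower one (-0.55). The phyA arrays lay wholly below the phyB arrays for 8 of the 18 and wholly above for 4, beside backgrounds of 14.7% and 14.1%. EXPA15 was at 1420 and 978 in phyA, against 2681 and 1639 in phyB (-0.81), and the expansin-like gene EXLA1 at 8011 and 6711 in phyA, against 9163 and 14020 in phyB (-0.63). EXPA24 had the smallest p of the list but was dim, at 9 and 24 in phyA, against 121 and 101 in phyB (-1.44, limma adjusted p = 1). The list median stayed negative in each of the 14 other settings (-0.42 to -0.24). The 32 other cell wall genes, mostly endotransglucosylases, cellulases and synthases, showed 17 positive and 15 negative differences, with a median of 0.03. Of the 32, 3 lay wholly above and 5 wholly below phyB, beside backgrounds of 14.1% and 14.7%. Their 3 smallest p were those of the cellulase genes GH9B11 (-1.61) and GH9B5 (-0.99) and the pectin methylesterase gene PME61 (-0.63).

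The 3 gibberellin receptor genes, whose products bind the hormone and trigger DELLA breakdown, were all higher in phyA without overlap and were not called. The background of such separation was 14.1% of probe sets. The receptors are part of a list of 5 chosen with earlier results of these data known, so their count cannot be weighed against that share. GID1A read 3819 and 3881 in phyA, against 3249 and 1557 in phyB (0.76), GID1B 1786 and 1420, against 1221 and 560 (0.91), and GID1C 1154 and 1103, against 1075 and 775 (0.29). SPY, a negative regulator of gibberellin signalling, read 2571 and 4004 in phyA, against 2557 and 1340 in phyB (0.78), and SLY1, the F-box protein that targets DELLAs, read 2253 and 2070 in phyA, against 3470 and 3457 in phyB (-0.67). None passed the test (adjusted p = 1). In the receptors and SPY phyB replicate 2 was the lowest of the 4 arrays, and without that array the list median was 0.24, against 0.76 with it.

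Auxin genes were mixed, with 9 of 17 positive (median 0.17, and -0.34 without phyA replicate 2). WES1, a GH3 enzyme that conjugates auxin, was at 17891 and 17378 in phyA, against 14486 and 5733 in phyB (0.95), IAA33 at 42 and 25 in phyA, against 134 and 274 in phyB (-1.69), and LBD29, a root-initiation factor, at 44 and 303, against 34 and 25. The ethylene factor EIN3 was at 0.42, the brassinosteroid receptor relative BRL1 at -0.30 and the cytokinin response regulator ARR15 at 0.19, each with overlapping arrays.

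Defence proteins, mainly defensins and cysteine-rich peptides, had 14 of 17 negative differences (median -0.32). The symbols also matched PDF1A and PDF1B, which are peptide deformylases and not defensins, and without them 12 of 15 were negative (median -0.55). The phyA arrays lay wholly below the phyB arrays for 5 of the 15, beside the background of 14.7%, and wholly above for 0. Besides PDF2.1 these were PDF2.5, at 3714 and 1444 in phyA, against 4175 and 5419 in phyB (-1.02), LCR67, at 17468 and 13793, against 27545 and 29037 (-0.86), LCR69, at -1.02, and LCR68, at -0.55. None other than PDF2.1 came near the threshold, with an adjusted p of 1. The median of the 15 was negative in each of the 14 other settings (-1.02 to -0.17). Over all 17 genes the median was -0.17 in the replicate 1 arrays and -0.67 in the replicate 2 arrays. The 15 were set apart after the values were seen, so their counts are a description only. RALF-like genes, which encode small secreted peptides that alkalinise the cell wall space, had 7 of 11 negative (median -0.34). In 5 of the 11 phyA lay wholly below phyB, beside the background of 14.7%, among them RALFL31 (-0.86) and RALFL22 (-0.55). RALFL28 alone lay wholly above, beside the background of 14.1%, at 105 and 123 in phyA, against 26 and 18 in phyB (1.33). The RALF-like median was -0.05 in the replicate 1 arrays and -0.49 in the replicate 2 arrays.

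Dehydration, cold and heat genes were mixed. Of 10 dehydration and cold genes 6 were negative (median -0.28, and 0.01 without phyB replicate 2), with the dehydrin LTI30 at -0.52, the zinc finger factor STZ at -0.56 and COR15A, a chloroplast cold protein, at -0.93. Of 3 heat shock genes Hsp70-2 was at 0.71, ATHSP22.0 at -0.51 and CLPB2 at -0.11. Autophagy genes were mostly those of the ATG8 family, whose products coat autophagosomes. They had 7 of 10 negative (median -0.29), with ATG8H at 5318 and 5271 in phyA, against 7897 and 11141 in phyB (-0.82), ATG8D at -0.75 and ATG8B at 0.55. Their median was -0.61 in the replicate 2 arrays and 0.06 in the replicate 1 arrays, and 0.04 without phyB replicate 2.

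Reserve use and primary metabolism were described by few genes. Besides PAP85, the oil body protein OLEO3 was at -0.36. ICL, isocitrate lyase of the glyoxylate cycle, was at 101229 and 64760 in phyA, against 93593 and 148008 in phyB (-0.54), AIM1, of fatty acid beta-oxidation, at 3429 and 7760, against 3523 and 1612 (1.10), and the oil lipase SDP1 at 0.06. Of 8 aldehyde dehydrogenases 7 were positive (median 0.37), and 4 of them lay wholly above phyB, beside the background of 14.1%. ALDH11A3 was at 20417 and 25940 in phyA, against 15919 and 10710 in phyB (0.82), ALDH10A8 at 17385 and 18108, against 13464 and 8811 (0.70), and ALDH6B2 at 0.45. None passed (adjusted p = 1), and the list median was 0.11 in the replicate 1 arrays and 0.72 in the replicate 2 arrays.

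Histone and cell cycle genes had 8 of 11 negative differences (median -0.17). HTB1, a histone H2B, was at 3091 and 2686 in phyA, against 4258 and 4902 in phyB (-0.66), CDC27a at -0.71 and the linker histone HIS1-3 at 0.72. The large enzyme and regulator families held members in both directions. The median was -0.02 for 22 cytochrome P450 genes (lowest CYP71B22 at -1.87, followed by CYP71B16 at -1.37 and CYP71B25 at -1.36), -0.02 for 47 UDP-glycosyltransferases (UGT71B5 at -1.98, UGT78D1 at -1.06 and UGT74D1 at 0.94) and -0.10 for 21 beta-glucosidases (BGLU47 at -1.50, BGLU24 at 1.26 and BGLU41 at -1.19). It was -0.29 for 7 WRKY, MYB, NAC and ERF factors (WRKY53 at -1.08, WRKY42 at -0.83 and WRKY6 at 0.52), -0.01 for 19 homeobox, bHLH and bZIP factors (bZIP43 at -2.19, bZIP42 at -1.34 and BZIP34 at 1.62) and -0.14 for 17 transporters (SWEET7 at 1.76, NRT2.5 at -1.52 and SWEET2 at 0.75). None of these members passed the test. The bZIP43 probe set, with the largest difference among them, was dim, at 6 and 20 in phyA, against 123 and 304 in phyB.

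Reference genes had a median of -0.02, with the actin gene ACT11 at 0.62, the ubiquitin-conjugating enzyme gene PEX4 at -0.46 and the tubulin gene TUB6 at -0.16. Of the markers of tissues the seedlings hold, the root genes PYK10, a beta-glucosidase of endoplasmic reticulum bodies, EXPA7 and EXPA18 were at -0.37, -0.21 and 0.41 and did not share a sign. PAP85 was the only marker measured for seed tissue, and the lists for etiolated shoot, light-grown leaf and flower markers and for cytosolic ribosomal proteins had no named probe set. By chromosome, the share of named probe sets at least 1 log2 unit apart without overlap was 2.73% to 3.57% higher in phyA and 3.52% to 5.00% lower in phyA over chromosomes 1 to 5.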

How the data were processed

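The authors deposited 1 linear intensity per probe set and array. The software they used was not given in the sources used here, and replicates were not pooled. Each array had a trimmed mean of 2500.2 to 2500.3, a common scale that was kept, so no further normalization was applied. The 64 control probe sets were left out. limma 3.58.1 (R 4.3.3) was run on the 4 phyA and phyB arrays with 1 coefficient for each genotype, on log2(intensity + 39) computed from the deposited intensities, without a filter, with eBayes and an intensity trend (2 residual degrees of freedom, prior 11.3), two-sided. The script was tested on simulated data. The first phyA array, whose title lacks a number, was numbered 1 by accession order.

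Of 22746 probe sets 13513 named 1 gene, 503 several and 8730 were not listed; 13436 of the first matched the RefSeq gene table (TAIR10.1). Mitochondrial genes were taken by symbol. Lists used 1 probe set per gene, the brightest. Members and lists were chosen with earlier results of these data known. Named genes were every called probe set, then, among non-overlapping probe sets naming 1 gene with a mean of at least 200 in the higher mutant, the 10 with the smallest p and the 5 with the largest difference in each direction, and from each list the 3 members lowest in p (or all, where fewer). A symbol pattern also matched 2 peptide deformylases on the defence list. Any other gene was added after its values were seen. The number of arrays limits the precision.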

Additional observations from a re-analysis of the deposited data

How the results depend on the processing

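The comparison rests on 2 arrays per genotype, and several counts move with single arrays. The 2 calls became 6 with a constant of 1, 4 after median centring, 1 after quantile normalization, 0 without the intensity trend (limma, with 314 higher and 450 lower at unadjusted p under 0.05), and 1 to 4 when 1 array was left out. Leaving out the dimmest 40% of probe sets gave 218 higher and 151 lower at unadjusted p under 0.05, and 221 and 149 without overlap at 1 log2 unit, from fewer probe sets tested. A constant of 100 gave 380 higher and 466 lower without overlap at 1 log2 unit. Without 1 array the counts at unadjusted p ran from 105 to 751 higher and 175 to 910 lower, and those without overlap from 750 to 2628 higher and 964 to 3077 lower, which had to rise, since 1 array against 2 overlaps less easily. The 6 positive list medians became 11 with quantile normalization, 10 without dim probe sets and 5 to 16 without 1 array; the cause was not tested.

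The replicate numbers pair the arrays only by name, and 1 phyA title has none. The replicate 1 minus 2 difference correlated at 0.238 between phyA and phyB. With the replicate number as a block, 53 probe sets were called on the 4 arrays, with 1017 higher and 884 lower at unadjusted p under 0.05. That fit had 1 residual degree of freedom and a prior of 72.9, so its p-values rest mostly on a variance shared over probe sets. With all 8 arrays the block called 7 (579 higher and 557 lower at unadjusted p). The block on the 4 arrays called 12 of the named genes that the fit without it did not, at limma adjusted p from 1.7e-08 to 0.03: QQS, PDF2.1, AT5G60250, AT2G34700, AT5G38980, AT5G10770, AT3G50900, AT2G45670, AT3G45730, PAP85, AT3G59340 and AT2G34080. The defence list without its peptide deformylases and the WT sides by replicate 2 alone were chosen after seeing the data.

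Of 1473 values of 108 named probe sets under other settings, 1420 kept their direction and side of the threshold, 17 passed it, 5 lost it and 31, of 24 genes, changed sign. With quantile normalization PYK10 was at 0.072, TPI at 0.11, CLPB2 at 0.0261 and SDP1 at -0.0203. Without 1 array the genes that changed sign ran as follows: ndhJ -1.49 to 0.0846, ACT11 -0.0493 to 1.29, ccb203 -2.41 to 0.33, DFR -2.98 to 0.47, HIS1-3 -0.38 to 1.83, COR15A -1.89 to 0.0221, HEMA3 -2.65 to 0.31, WRKY42 -1.79 to 0.14, OLEO3 -0.74 to 0.0139, EIN3 -0.31 to 1.14, LYC -0.17 to 0.77, RCA -0.0241 to 0.63, ATHSP22.0 -1.18 to 0.16, PSBW -0.56 to 0.0464, TUB6 -0.48 to 0.15, TPI -0.43 to 0.0438, BRL1 -1.05 to 0.45, GI -0.23 to 0.44, ARR15 -0.82 to 1.21, HYH -0.34 to 0.68, CLPB2 -0.40 to 0.17, SDP1 -0.59 to 0.71 and FHL -0.29 to 0.24.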

Other observations

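MCCB was among the bright genes named for a higher level in phyA. After its value was seen, a hand-picked set of other named genes linked to branched-chain amino acid breakdown was looked up. The set was not a full list of the pathway, and its values are a description with no test. All 6, with MCCB among them, had a positive phyA minus phyB difference (median 0.57). In 5 the phyA arrays lay wholly above the phyB arrays, beside the background of 14.1% of probe sets. MCCB was picked for such values, and ALDH6B2 had already been named from the aldehyde dehydrogenase list. These counts therefore cannot be weighed against that share. MCCA, the partner subunit of MCCB, was at 11226 and 21089 in phyA, against 8671 and 10802 in phyB (0.67). IVD, isovaleryl-CoA dehydrogenase, was at 11453 and 12621 in phyA, against 8820 and 6635 in phyB (0.65), and ETFQO, which passes its electrons to ubiquinone, at 1946 and 3296, against 1705 and 1891 (0.49). ALDH6B2 was at 0.45 and D2HGDH at 0.14. MCCB alone had an unadjusted limma p under 0.05 (adjusted p = 1). The WT arrays were at 18264 and 21598 for MCCA and 12873 and 15421 for IVD (phyA values above). Both WT arrays thus lay above both phyA arrays for IVD and above the lower one for MCCA. The phyAphyB arrays were at 7333 and 13041 for MCCA and 7475 and 11318 for IVD. In both genes phyAphyB replicate 1 lay below phyB replicate 1. Differences were larger in the replicate 2 arrays, at 0.96 for MCCA and 0.92 for IVD, than in the replicate 1 arrays, at 0.37 and 0.38. The part of phyB replicate 2, whose GAPDH 3'/5' value was 7.87, was not tested.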
